A study of Hippophae rhamnoides with 3 samples.

Results

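Seabuckthorn (Hippophae rhamnoides) is a cold-hardy shrub of the Himalayas and other cold regions. The genes described here were sought by names from glycolysis, fermentation, the citrate cycle, the pentose phosphate pathway and respiration, and differed between leaves held at different temperatures. They were picked by words of the best protein hit of each gene, from 16 keywords for enzymes of these pathways and 4 words that remove transporters, carriers, receptors and cinnamyl hits. The rule took 24 of the 7713 genes that were in at least 1 of 3 lists of differentially expressed genes. No gene name was found for citrate synthase, aconitase, enolase, phosphofructokinase or the words "mitochondrial ATP synthase", and the word succinate met only adenylosuccinate synthetase, an enzyme of purine synthesis. No member was placed in the citrate cycle, and some members are translocators or enzymes outside these pathways. A gene that is in no list was not analysed here, so the missing steps say nothing about their transcripts.

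Leaf RNA came from 30 day old plantlets under 3 conditions: freeze stress (FS) at -10°C, cold stress (CS) at 4°C and control (CON) at 28°C, each for 6 hr. Every condition had 1 library, so no difference has a replicate check, and a difference between conditions cannot be told apart from a difference between these libraries. Transcripts were counted by DeepSAGE, in which the enzyme NlaIII cuts cDNA at CATG and a 21 base tag next to the last site stands for 1 transcript. The counts and levels in the lists gave 11908615 clean tags for FS, 12010123 for CS and 11566380 for CON. Each comparison has its own list, in which all genes had passed the limits of the study, a log2 ratio of 1 or more in either direction and a false discovery rate limit. "Listed as higher" or "listed as lower" below means this, and "not listed" means that the gene is not in that list. Intervals are exact 95% Clopper-Pearson intervals of the ratio of 2 counts, scaled by clean tags. They cover counting error only, and PCR copies of a tag are not independent molecules. In whole leaves, fewer cells that make a transcript and less of it per cell cannot be told apart.

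Glycolysis splits glucose into pyruvate, and in leaves many of its steps exist both in the cytosol and in the plastid, where aldolase, glyceraldehyde 3-phosphate dehydrogenase and phosphoglycerate kinase also serve the Calvin cycle. Pyruvate can enter mitochondria, where complexes of the inner membrane pass electrons to oxygen, or it can be turned by pyruvate decarboxylase and alcohol dehydrogenase into ethanol. Malate and oxoglutarate exchange across the plastid envelope joins carbon and nitrogen metabolism of both compartments.

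At the members, 32 distinct tags passed the limits of the study, 25 in the sense of 20 members and 7 antisense to 6 members. For 4 members no sense tag was listed, and the gene counts also hold sense tags that are in no list. Not every listed tag lay at the site nearest the 3′ end. Each listed tag matched 1 gene without mismatch. Listed tags of genes in the main results are shown 5′ to 3′, with the NlaIII site in capitals and the 17 bases that identify the transcript in lower case. The antisense tags are shown because their counts did not follow those of the gene.
Unigene115949 phosphoglycerate kinase, sense tag nearest the 3′ end: CATGcctcaacagagggagtt
Unigene115949 phosphoglycerate kinase, next sense tag: CATGgccaaaaagagtgttgg
Unigene71888 phosphoglycerate kinase, sense: CATGggtgttttcgagtttga
Unigene115309 fructose-bisphosphate aldolase, most abundant sense tag: CATGttgcatttgactcgtcc
Unigene116258 glyceraldehyde 3-phosphate dehydrogenase, most abundant sense tag: CATGtcatcacccataaccat
Unigene22691 hexokinase, sense: CATGcttgaatgaggcgatgg
Unigene66357 phosphoglycerate mutase, sense: CATGttcactaatccctttta
Unigene13874 pyruvate decarboxylase, sense: CATGataccgaaacactgttg
Unigene13874 pyruvate decarboxylase, antisense: CATGtaattcactgccaccac
Unigene32739 alcohol dehydrogenase, sense: CATGagacttcaagaggccaa
Unigene32739 alcohol dehydrogenase, antisense: CATGggaagaaagattgtggc
Unigene34884 alcohol dehydrogenase, sense: CATGcagctgaagtgcaacct
Unigene73042 complex I flavoprotein, sense: CATGcttgtagaagtatgata
Unigene18002 glucose-6-phosphate dehydrogenase, sense: CATGaatagaactgatcttgg
Unigene38755 oxoglutarate/malate translocator, antisense: CATGtcacaacgcctgtaata

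Most listed members were higher in the FS library. Against CON, 11 of the 24 members (45.8%) were listed as higher in FS and 4 (16.7%) as lower, where 29.5% of all 7713 genes were listed as higher and 23.0% as lower. Against CS, 11 members (45.8%) were again listed as higher in FS and 3 (12.5%) as lower, beside 28.7% and 23.2% of all genes. Between CS and CON the order was the other way, with 3 members (12.5%) listed as higher in CS and 6 (25%) as lower, beside 26.6% and 23.6% of all genes. The median log2 ratio of the listed members was 1.49 for FS over CON, 1.43 for FS over CS and -1.35 for CS over CON, and over all genes of each list it was 1.18, 1.12 and 1.08. No listed ratio is under the log2 limit of 1 in size. The sign of such a median therefore follows the direction counts, and the medians are no separate measure of effect size. FS over CON and FS over CS share the FS library, so the pair of counts of 11 is not a repeated result. The listing takes counting error only. With the biological coefficient of variation taken as 0.4, an edgeR exact test at an unadjusted p of 0.05 left 3 higher and 2 lower members in FS over CON, 5 and 1 in FS over CS, and 1 and 0 in CS over CON, so the lower calls in CS, aldolase, GAPDH and PGK among them, were not kept. A log2 limit of 2 left 3 and 1, 4 and 1, and 0 and 0.

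**Figure D1:**
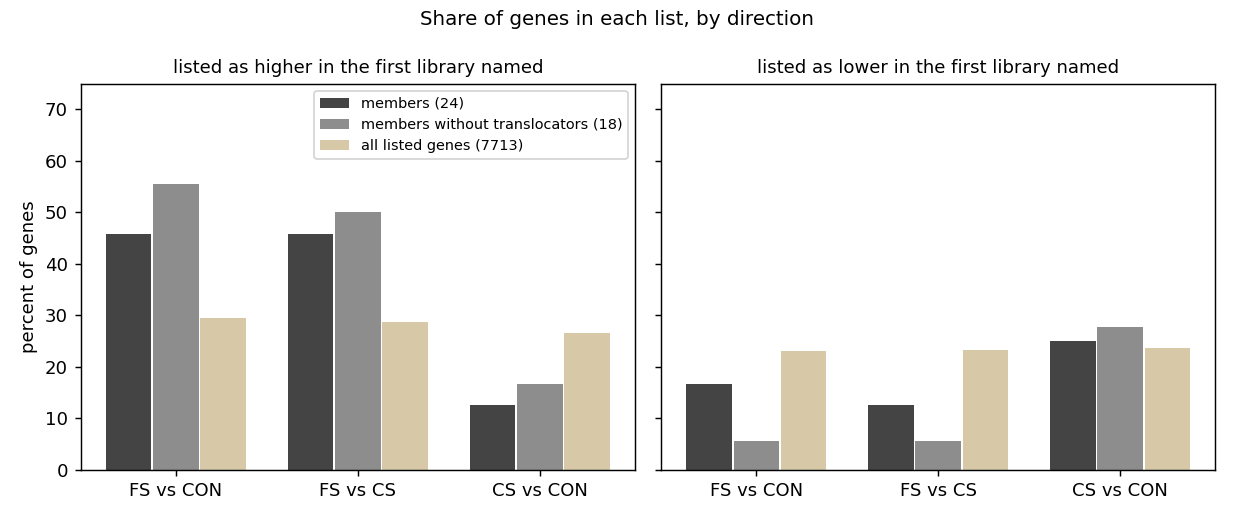
Percent of genes listed as higher (left panel) and lower (right panel) in the first library of each comparison, for the 24 members, the 18 members without translocators and all 7713 listed genes. In FS over CON the share listed as higher is 45.8% of members and 29.5% of all genes, and in CS over CON it is 12.5% and 26.6%, as a description without a test.

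Of the 24 members, 6 were named for translocators of the plastid envelope, which move malate, oxoglutarate, glutamate or glucose-6-phosphate and are no enzymes of the pathways. Leaving them out was decided after the data were seen. Of the other 18 members, 10 (55.6%) were listed as higher and 1 (5.56%) as lower in FS over CON. In FS over CS the counts were 9 (50%) and 1 (5.56%), and in CS over CON 3 (16.7%) and 5 (27.8%). Of the 10 members in glycolysis and the respiratory chain alone, 5 (50%) were listed as higher and 1 (10%) as lower in FS over CON. For FS over CS these were 6 (60%) and 1 (10%), and for CS over CON 1 (10%) and 3 (30%). The shares of all genes were 29.5% and 23.0% in FS over CON, 28.7% and 23.2% in FS over CS, and 26.6% and 23.6% in CS over CON.

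In 14 members, which were each in 2 lists, the count was known in all 3 libraries, and their shape was taken from these listed calls, not from the order of the counts. FS was listed above both other libraries in 6 of them (42.9%), against 20.1% of the 3711 genes that were in 2 lists. CS was listed below both in 3 (21.4%), against 15.5% of those genes. Both stressed libraries were listed above CON in 2 (14.3%), against 17.8%. The remaining shapes had 1 member each. No member was in all 3 lists, in which 3.23% of all genes were.

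**Figure D2:**
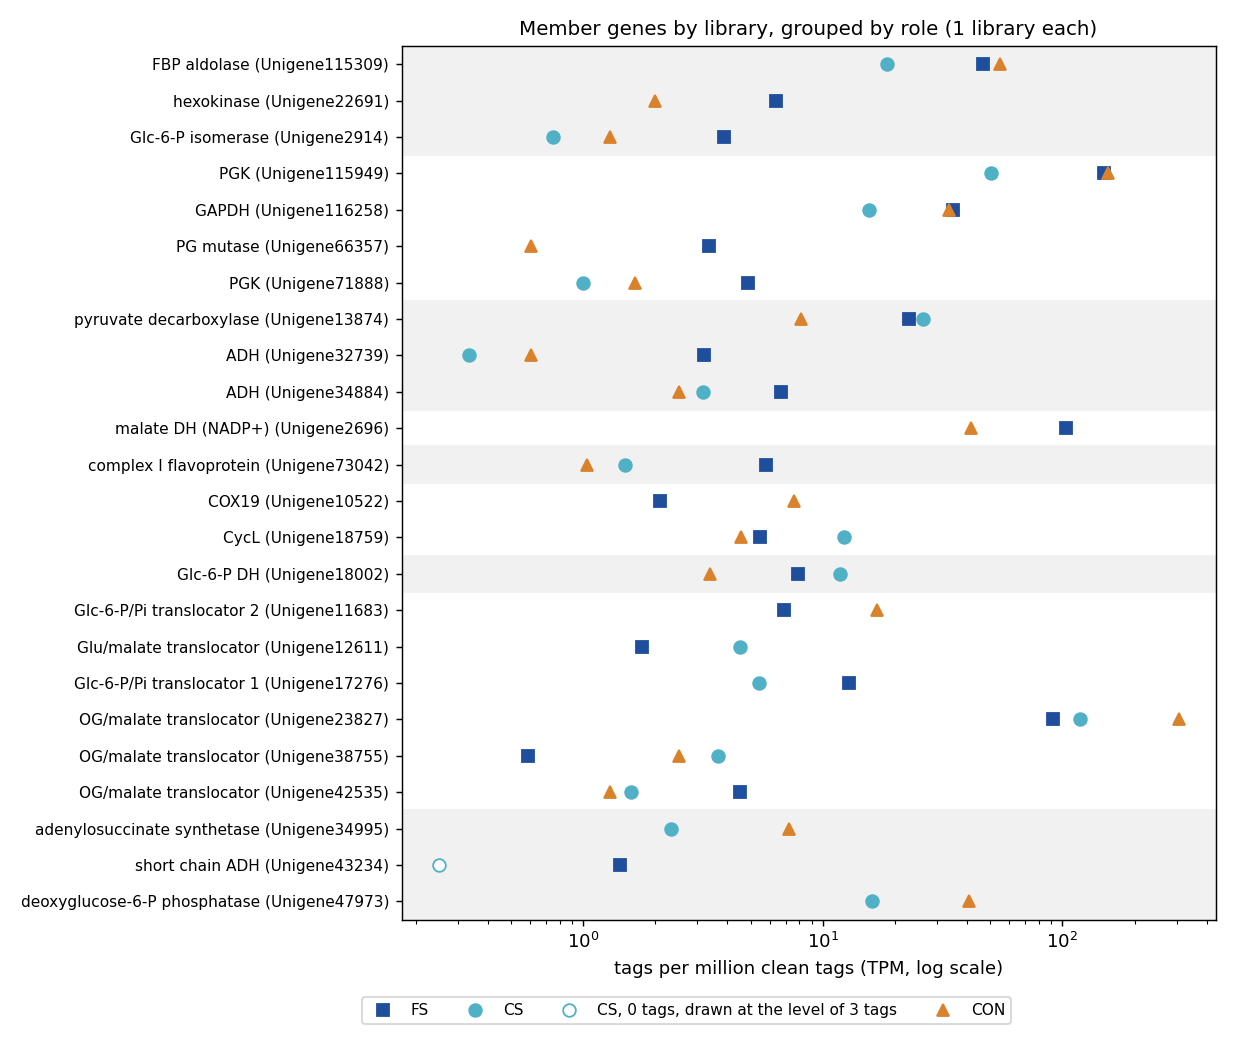
Level in TPM (the count scaled to a common number of clean tags, log axis) of the 24 members in the FS (squares), CS (circles) and CON (triangles) library, grouped by role with shaded bands. A missing symbol means a count that no list gives, and the open circle marks 0 tags. Aldolase, GAPDH and 1 PGK are low in CS with FS near CON, while the isomerase, the other PGK, both alcohol dehydrogenases and complex I have FS apart to the right.

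In upper glycolysis, the first steps that activate and cleave the sugar, 2 of the 3 members were listed as higher in FS over CON. Among all genes 29.5% were listed in this way, and the edgeR exact test kept neither member's call. Hexokinase, which phosphorylates glucose, was represented by Unigene22691 with 76 tags in FS and 23 in CON, and its CS count is in no list. Its log2 ratio of FS over CON was 1.68 (95% interval 0.99 to 2.42), and its GO component was plastid stroma. Glucose-6-phosphate isomerase, which makes fructose-6-phosphate, had 46 tags in FS, 9 in CS and 15 in CON for Unigene2914. FS was the high library, at a log2 ratio of 1.57 over CON (0.71 to 2.52) and 2.37 over CS (1.32 to 3.58). The interval of CS over CON, -2.17 to 0.50 around -0.79, spanned 0.

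Fructose-bisphosphate aldolase, which cleaves the hexose into trioses, showed another order. Unigene115309 had 557 tags in FS, 222 in CS and 636 in CON. CS was the low library, with a log2 ratio of -1.57 over CON (-1.80 to -1.35), and FS over CS was 1.34 (1.11 to 1.57). FS and CON lay close, at -0.23 (-0.40 to -0.07), and that difference is in no list. Neither listed call of this gene was kept by the edgeR exact test. The 3 listed sense tags of this gene ran the same way: the most abundant had 337 tags in FS, 142 in CS and 451 in CON, the one farthest from the 3′ end 99, 42 and 110, and the middle one 121 in FS and 38 in CS, with its CON count in no list.

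In lower glycolysis, which turns trioses into pyruvate, the members with the most tags shared the low CS count of aldolase. Unigene116258, glyceraldehyde 3-phosphate dehydrogenase (GAPDH), had 418 tags in FS, 188 in CS and 389 in CON. CS stood below both, with a log2 ratio of -1.10 over CON (-1.36 to -0.85) and 1.17 for FS over CS (0.91 to 1.42). The ratio of FS over CON was 0.06 (-0.14 to 0.26). Unigene115949, phosphoglycerate kinase (PGK), which yields the first ATP of the pathway, had 1782 tags in FS, 607 in CS and 1788 in CON. Again CS alone was low, at -1.61 over CON (-1.75 to -1.48), with FS over CS at 1.57 (1.43 to 1.70) and FS over CON at -0.05 (-0.14 to 0.05). GO terms place both genes in the plastid stroma and in carbon fixation, besides glucose catabolism. No listed call of either gene was kept by the edgeR exact test.

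A second PGK gene, Unigene71888, whose GO terms name no plastid, differed in shape. It had 58 tags in FS, 12 in CS and 19 in CON. FS stood above both, at a log2 ratio of 1.57 over CON (0.80 to 2.40) and 2.29 over CS (1.37 to 3.32). CS over CON was -0.72 (-1.89 to 0.40), an interval that spans 0. With the edgeR exact test the call of FS over CS was kept and that of FS over CON was not. A bisphosphoglycerate-independent phosphoglycerate mutase, Unigene66357, with GO component cytoplasmic part, had 40 tags in FS and 7 in CON, a log2 ratio of 2.47 (1.30 to 3.88). Its listed tag had 21 copies in FS and 0 in CON, where a count of 0 allows up to 3 tags, and its CS count is in no list.

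The tags of PGK Unigene115949 did not all move together. The one nearest the 3′ end held 96.9% of the gene's tags in FS, 98.8% in CS and 98.0% in CON, and so set the gene count, with 1726, 600 and 1753 tags. The next site had 45 tags in FS, 7 in CS and 7 in CON. At that site FS was the high library, at a log2 ratio of 2.64 over CON (1.48 to 4.04), while the main tag gave -0.06 (-0.16 to 0.03).

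Of the 3 genes with the low CS count, GAPDH and PGK have plastid GO terms. Aldolase has none, and its plastid role is textbook knowledge only. Plastid GO terms were not particular to genes low in CS. Glucose-6-phosphate dehydrogenase Unigene18002 has one and was listed as higher in CS over CON. Hexokinase Unigene22691 has one and was listed as higher in FS over CON. Leaf markers of photosynthesis differed between the libraries too, without a common order. The 1 listed gene for the rubisco small chain had a level of 521 TPM (the count scaled to a common number of clean tags) in FS, 113 in CS and 648 in CON. Of 6 listed chlorophyll a/b binding proteins, 3 were listed as lower and 1 as higher in CS over CON. Of 21 listed photosystem genes, 5 were listed as lower and 14 as higher in CS over CON. Rubisco small chain transcripts were present in every library, and the part of these genes in the glycolysis counts was not tested.

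**Figure D3:**
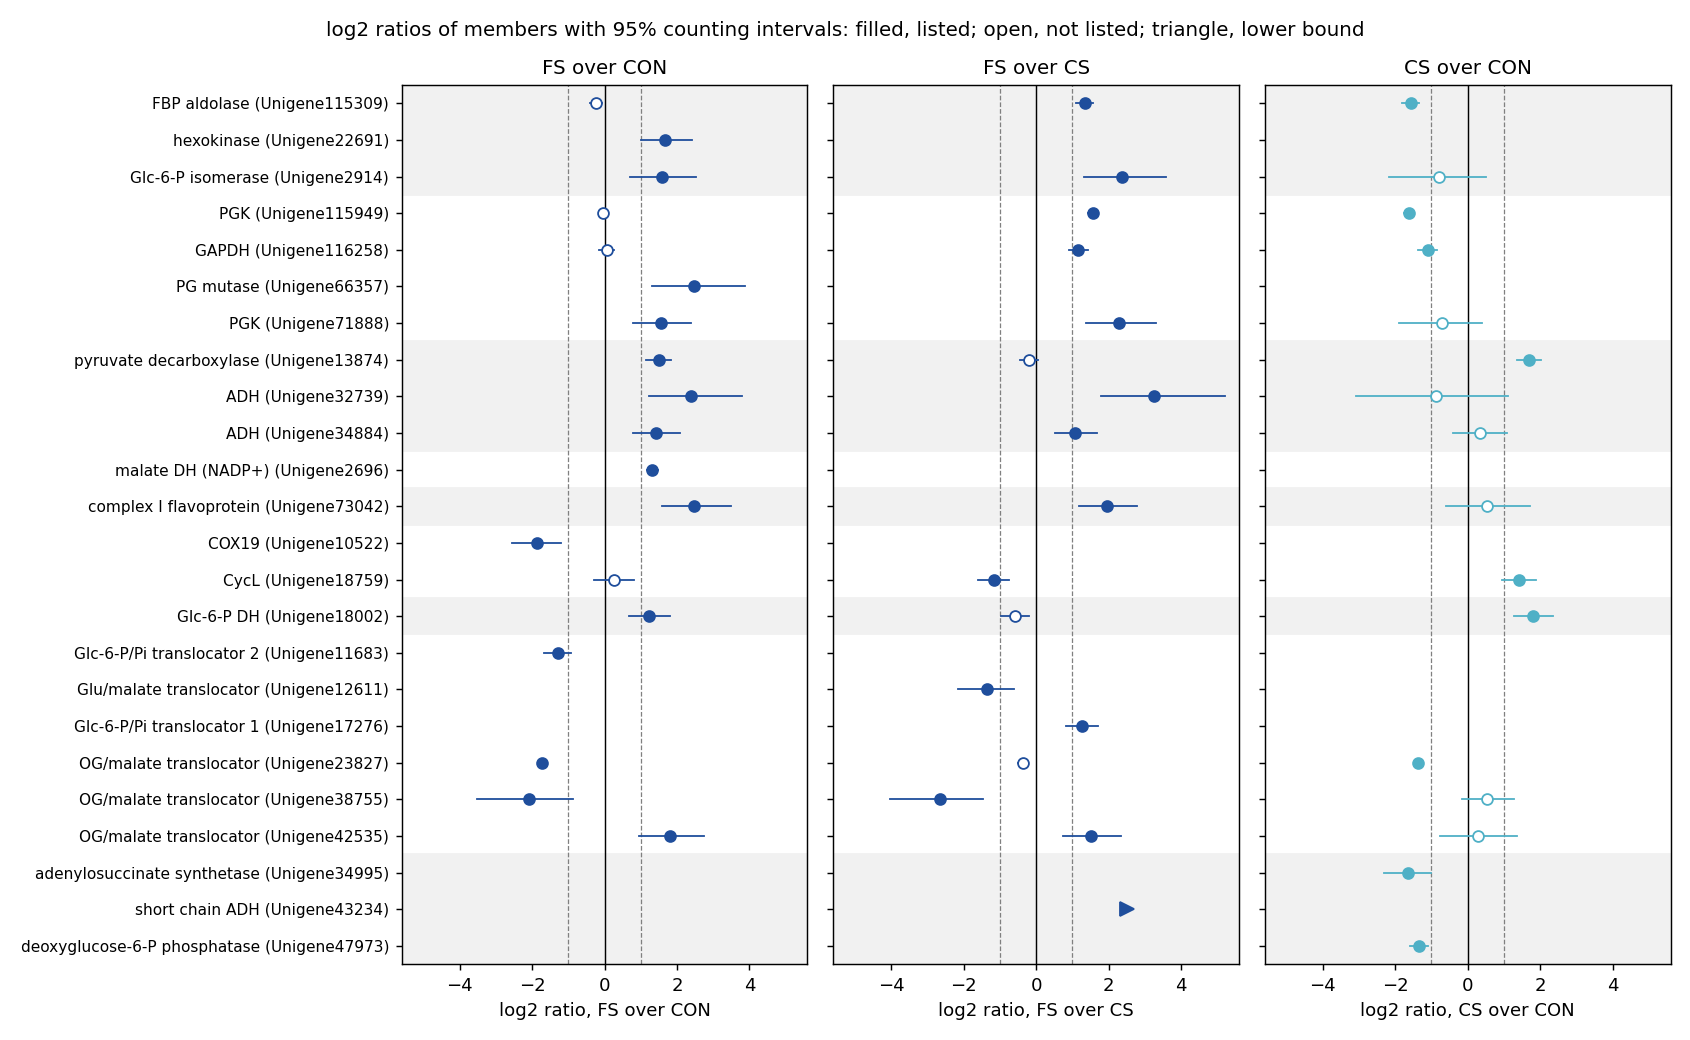
The log2 ratio of each member in the 3 comparisons (x axis), with bars for the exact 95% counting interval. Filled symbols are listed, open ones not listed, dashed lines mark 1 and -1, and the triangle is a lower bound from a floor of 3 tags. Ratios of FS over CON reach 2.48 for complex I, and the intervals of genes with few tags are wide.

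Fermentation had all its 3 members listed as higher in FS over CON, beside 29.5% of all genes. Of these calls the edgeR exact test kept only that of alcohol dehydrogenase Unigene32739. It did not keep the CS call of pyruvate decarboxylase either. Pyruvate decarboxylase, which takes CO2 from pyruvate and starts ethanol formation, was Unigene13874 with 272 tags in FS, 315 in CS and 94 in CON. Both stressed libraries were high, at a log2 ratio over CON of 1.49 in FS (1.15 to 1.84) and 1.69 in CS (1.35 to 2.04). They did not separate from each other, at -0.20 for FS over CS (-0.44 to 0.04).

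The alcohol dehydrogenases (ADH), which reduce acetaldehyde to ethanol or act on other alcohols, were listed as higher in FS than in both other libraries. Unigene32739 had 38 tags in FS, 4 in CS and 7 in CON. The listed sense tag, at site 5 from the 3′ end, held 17 of these in FS and 0 in CS. The gene's log2 ratio was 2.40 over CON (1.22 to 3.81) and 3.26 over CS (1.79 to 5.21), the largest ratio between counted libraries among the members, on few tags. Unigene34884 had 80 tags in FS, 38 in CS and 29 in CON, with 1.42 over CON (0.79 to 2.09) and 1.09 over CS (0.51 to 1.68). Neither call of Unigene34884 was kept by the edgeR exact test. For both genes the interval of CS over CON spanned 0, -3.08 to 1.11 for Unigene32739 and -0.40 to 1.09 for Unigene34884. Thus pyruvate decarboxylase was listed as higher in both stressed libraries and each ADH gene in FS, and whether these responses differ between genes was not tested. Both hits are named alcohol dehydrogenase, putative, from castor bean, and the substrate of either is not known from the files.

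For the malate dehydrogenase hit, Unigene2696 had 1233 tags in FS and 481 in CON. Its log2 ratio was 1.32 (1.16 to 1.47), or 0.99 with TMM factors, which is below the limit of the list, and the CS count is in no list. This call was not kept by the edgeR exact test. The best hit, NADP-dependent malate dehydrogenase of grape, had an E-value of 1.25e-12, and the GO function was malic enzyme activity, so hit and GO term name different enzymes: the one interconverts malate and oxaloacetate, the other turns malate into pyruvate.

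In the respiratory chain, the flavoprotein of complex I, which takes electrons from NADH, was high in FS. Unigene73042 had 69 tags in FS, 18 in CS and 12 in CON. The log2 ratio was 2.48 over CON (1.59 to 3.50) and 1.95 over CS (1.19 to 2.79), and the interval of CS over CON, -0.60 to 1.72, spanned 0. The pair of members for cytochrome c and complex IV went other ways. COX19, known from yeast as a copper-binding factor that helps to assemble cytochrome c oxidase, was Unigene10522 with 25 tags in FS and 88 in CON, a log2 ratio of -1.86 (-2.56 to -1.20). CycL, a factor for joining heme to cytochrome c in bacteria and plant mitochondria, was Unigene18759 with 65 tags in FS, 147 in CS and 53 in CON. Here CS was high, at 1.42 over CON (0.96 to 1.90), and FS over CS was -1.17 (-1.61 to -0.73). Neither CycL call was kept by the edgeR exact test.

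Glucose-6-phosphate dehydrogenase, the entry step of the oxidative pentose phosphate pathway and a source of NADPH, also had both stressed libraries above CON. Unigene18002 had 94 tags in FS, 142 in CS and 39 in CON. The log2 ratio over CON was 1.23 in FS (0.67 to 1.80) and 1.81 in CS (1.29 to 2.36). FS over CS was -0.58 (-0.97 to -0.20), which is in no list. With TMM factors FS over CON was 0.90, below the limit of the list, and the edgeR exact test kept the CS call and not the FS call.

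The 6 translocator hits had no common direction. The chloroplast precursor of an oxoglutarate/malate translocator, Unigene23827, had 1088 tags in FS, 1419 in CS and 3529 in CON, the highest count of any member. Both stressed libraries were low, at a log2 ratio of -1.74 in FS (-1.84 to -1.64) and -1.37 in CS (-1.46 to -1.28). The other 2 genes with this hit name went apart: Unigene42535 had 54 tags in FS, 19 in CS and 15 in CON, and Unigene38755 had 7, 44 and 29. FS over CON was 1.81 for Unigene42535 (0.96 to 2.74) and -2.09 for Unigene38755 (-3.53 to -0.87). FS over CS ran the same way, at 1.52 for Unigene42535 (0.74 to 2.36) and -2.64 for Unigene38755 (-4.04 to -1.48). Neither call of Unigene42535 was kept by the edgeR exact test. For Unigene38755 it kept FS over CS only, and for Unigene23827 FS over CON only.

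The glutamate/malate translocator Unigene12611 had 21 tags in FS and 54 in CS, a log2 ratio of -1.35 (-2.15 to -0.60). Of the glucose-6-phosphate/phosphate translocators, which bring hexose phosphate into plastids, Unigene17276 had 154 tags in FS and 65 in CS, a ratio of 1.26 (0.83 to 1.70). The other, Unigene11683, had 82 tags in FS and 195 in CON, a ratio of -1.29 (-1.68 to -0.91). These genes were each in 1 list, so the count in the remaining library is not known. None of their calls was kept by the edgeR exact test.

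The remaining 3 members met a keyword without belonging to these pathways. A phosphatase hit for deoxyglucose-6-phosphate, Unigene47973, had 192 tags in CS and 472 in CON, a log2 ratio of -1.35 (-1.60 to -1.11). Adenylosuccinate synthetase, Unigene34995, had 28 in CS and 84 in CON, a ratio of -1.64 (-2.31 to -1.01). A short chain alcohol dehydrogenase, Unigene43234, had 17 tags in FS and 0 in CS, which is at least 5.71-fold higher in FS against a floor of 3 tags, and its GO function was fatty acid synthase activity.

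Tags antisense to 6 members lay outside the gene counts, which hold sense tags. The antisense tag of pyruvate decarboxylase Unigene13874 had 1114 copies in FS, 4032 in CS and 1767 in CON. It was 4.10, 12.8 and 18.8 times the gene's own count in the same libraries, so most tags at this gene came from the other strand. CS was the high library, at a log2 ratio of 1.14 over CON (1.05 to 1.22), while FS lay below CON at -0.71 (-0.82 to -0.60), unlike the sense tag.

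The antisense tag of ADH Unigene32739 had 73 copies in FS, 71 in CS and 4 in CON. It was high in both stressed libraries, at 4.15 over CON in FS (2.73 to 6.06) and 4.10 in CS (2.68 to 6.01), where the sense count was high in FS and not in CS. The antisense tag of the translocator Unigene38755 had 84 copies in FS, 20 in CS and 54 in CON, the reverse of the gene's order of 7, 44 and 29. At PGK Unigene115949, by contrast, the first antisense tag had 168, 43 and 165 copies, low in CS like the sense count. The adenylosuccinate synthetase gene had 776 antisense tags in CS and 1873 in CON, 27.7 and 22.3 times its sense count. Which strand of a reference sequence is the coding one was taken from the files and was not tested.

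**Figure D4:**
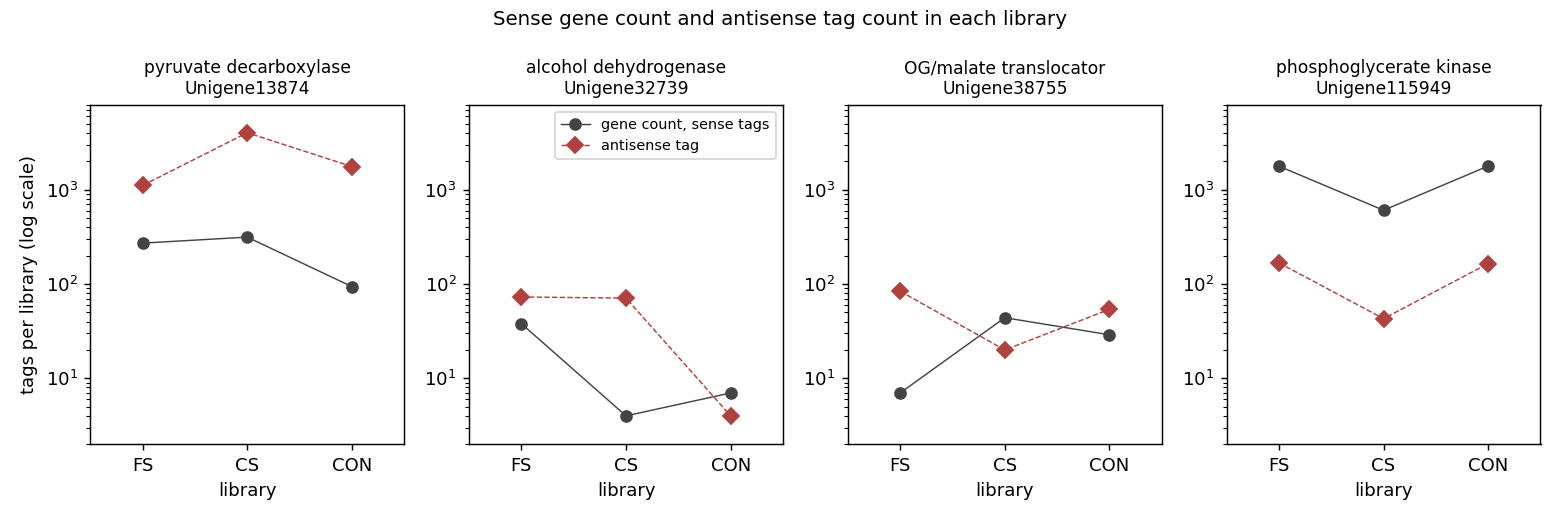
Tags per library (log axis) for the sense gene count (circles) and an antisense tag (diamonds) of 4 members, in FS, CS and CON. The antisense tag is the listed one nearest the 3′ end, which for alcohol dehydrogenase is at site 6. The antisense tag of pyruvate decarboxylase lies above the sense count in every library, that of the translocator runs against it and that of PGK runs with it.

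GO process words and further enzyme names that the keywords miss gave 22 other genes, which include chloroplast counterparts such as cytochrome b6, plastid ATP synthase and NADH-plastoquinone oxidoreductase, a vacuolar ATP synthase and a cytochrome b5 fusion besides enzymes of these pathways. In FS over CON 12 (54.5%) were listed as higher and 2 (9.09%) as lower, beside 29.5% and 23.0% of all genes. In FS over CS 6 (27.3%) were listed as higher and 1 (4.55%) as lower, beside 28.7% and 23.2%. In CS over CON 10 (45.5%) were listed as higher and 3 (13.6%) as lower, beside 26.6% and 23.6%. A split by plastid or cytochrome b5 words was chosen after the values were seen. In FS over CON the 13 genes with such words had 9 (69.2%) higher and 0 lower. The remaining 9 genes had 3 (33.3%) and 2 (22.2%), near the shares of all genes. In FS over CS the 13 had 3 (23.1%) and 0, and the 9 had 3 (33.3%) and 1 (11.1%). In CS over CON the 13 had 7 (53.8%) and 2 (15.4%), and the 9 had 3 (33.3%) and 1 (11.1%).

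Some of the 22 are named for enzymes of respiration, the citrate cycle or glycolysis. The delta chain of mitochondrial ATP synthase, Unigene29414, had 575 tags in FS, 180 in CS and 210 in CON, so FS was high as for complex I. The D chain, Unigene98837, had 23 tags in FS and 2 in CS, and its CON count is in no list. Oxoglutarate dehydrogenase, a citrate cycle enzyme, was Unigene44273 with 33 tags in FS, 36 in CS and 121 in CON, low in both stressed libraries. A putative NADH dehydrogenase, Unigene12682, had 25 tags in FS, 62 in CS and 7 in CON, with CS the high library. Another gene with this hit name, Unigene71470, had 48 tags in FS and 16 in CON, and its CS count is in no list. By GO component only, Unigene45693 belongs to the mitochondrial respiratory chain, with 92 tags in CS and 42 in CON. Triosephosphate isomerase, which interconverts the trioses, was high in FS for Unigene34405, with 84 tags in FS, 27 in CS and 34 in CON. Unigene97581, with the same hit name and plastid GO terms, had 13 tags in CS and 42 in CON.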

How the data were processed

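Leaf mRNA of 3 libraries (FS, CS and CON, 1 each) was turned into 21 base tags at NlaIII sites. Per the study's methods, the authors removed adaptors, low quality tags and tags with under 2 copies, mapped tags to reference gene sequences with at most 1 mismatch, dropped tags of several genes and kept genes past their limits for each pair of libraries. Bowtie 0.12.3 is named in the submitters' processing notes, with no settings stated in the sources used here. Deposited counts are unambiguous sense tags per gene, and TPM, as deposited, expresses each count relative to the clean tags of its library. Columns with the authors' ratios, P-values and FDR were not used. The paper describes references from other species, while the files carry Unigene IDs, and which sequences these are was not settled. No genome was used, so no positions are given.

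Clean tag totals were recovered from counts and TPM, and recomputed TPM differed by at most 0.0050 from the deposited ones. Ratios were scaled by these totals, with exact 95% intervals, and against 0 tags a floor of 3 tags was used (0.25 TPM in FS and CS, 0.26 in CON). With 1 library per condition no test across replicates was possible. Alternatives were edgeR TMM factors, a minimum of 30 tags, a log2 limit of 2, no members at 0 tags, an E-value limit of 1e-20, pathway roles only, an edgeR exact test with the biological coefficient of variation taken as 0.4, the most abundant tag alone and, added after seeing the data, no translocators. Members were named where they were in 2 lists, had the largest ratio of their role or at least 100 tags, and as all roles are small the remaining ones are given too. Members and lists were chosen with earlier results of these data known. Intervals were checked on simulated counts. Software was R 4.3.3 with edgeR 4.0.16, and Python 3.11.15 with scipy 1.17.1, pandas 2.3.3, numpy 2.4.6 and matplotlib 3.10.9.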

Additional observations from a re-analysis of the deposited data

Results flagged for a closer look

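4 ratios came from antisense tags, which no gene count includes, and were above the CON library with a counting interval that did not span 0. At pyruvate decarboxylase Unigene13874 the log2 ratio of CS over CON was 1.14. At alcohol dehydrogenase Unigene32739 it was 4.15 for FS over CON and 4.10 for CS over CON, on 4 tags in CON. At the oxoglutarate/malate translocator Unigene38755 it was 0.60 for FS over CON (0.09 to 1.12), a ratio under the limit of the lists. This tag stands in the lists for the other pairs of libraries only. TMM factors take 0.33 off, which is less than the ratio but more than the lower end of its interval. Each rests on 1 tag and 1 library per condition.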

How the results depend on the processing

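TMM factors were computed from the 3960 listed genes whose counts were known in all 3 libraries. Genes in no list could not enter, so the factors may carry this selection. They lowered each log2 ratio by 0.29 in CS over CON, 0.33 in FS over CON and 0.04 in FS over CS. Relative to that shift, FS over CON kept 9 of 11 members listed as higher, without Unigene18002 and Unigene2696, and 30 of 37 listed ratios stayed inside their own interval. As the shift is the same for all genes of a comparison, staying inside depends on interval width. Intervals are wide for few tags, so this count is no measure of stability. The sign turned for 3 ratios that are in no list (GAPDH Unigene116258 and CycL Unigene18759 in FS over CON, and Unigene42535 in CS over CON). The most abundant tag alone is the whole gene count in 11 of 28 ratios and part of it in 17, so it says little of stability, and it moved GAPDH in CS over CON to -1.41. A log2 limit of 2 left, higher and lower, 3 and 1 members in FS over CON, 4 and 1 in FS over CS, and 0 and 0 in CS over CON. The edgeR exact test at an unadjusted p of 0.05 with the assumed coefficient of variation left 3 and 2, 5 and 1, and 1 and 0 in the same order. Glycolysis and respiratory roles alone left 5 and 1, 6 and 1, and 1 and 3. Leaving out translocators left 1 lower member in FS over CON and 1 in FS over CS. No paired analysis was possible because each condition had 1 library, and leaving out a library would leave no comparison. Genes with under about 30 tags have wide intervals, and a gene in 1 list has no value in the remaining library.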

Other observations

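A further list, chosen after the values were seen, holds the 20 listed genes with the GO process glucose catabolic process, 7 of them members. The 13 non-members include oxoglutarate dehydrogenase Unigene44273, described above. In FS over CON 5 (38.5%) were listed as higher and 2 (15.4%) as lower, beside 29.5% and 23.0% of all genes. In FS over CS 5 (38.5%) were listed as higher and 0 as lower, beside 28.7% and 23.2%, and in CS over CON 3 (23.1%) and 5 (38.5%), beside 26.6% and 23.6%. Among them, a plastidic aldolase hit, Unigene115457, had 6857 tags in CS and 14948 in CON. Non-members with plastid GO terms had no common order. In FS, CS and CON, Unigene89107 had 233, 103 and 285 tags, and Unigene17583 had 73, 74 and 166. Unigene15323 had 141, 97 and 44, Unigene48951 126, 60 and 49, and Unigene23419 43, 6 and 7. Unigene115720 has the same GO components as GAPDH Unigene116258. It had 11342 tags in FS and 4144 in CON, and its CS count is in no list. A gene with a hypothetical protein hit and GO function kinase activity, Unigene13721, had 38 tags in FS, 4 in CS and 7 in CON, the same 3 counts as ADH Unigene32739. The 1 listed tag of that gene is not among the 2 listed tags of the ADH gene. Tags in no list also enter the gene counts, so this cannot show whether both genes count the same tags.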
